A study of Homo sapiens with 18 samples.

Results

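Loss of the corepressor scaffold RCOR1 was studied in LNCaP cells, a human line from a lymph node metastasis of prostate cancer that responds to androgen, without added androgen. RCOR1 siRNA in vehicle was compared with non-targeting control siRNA in vehicle, with 3 libraries in each group, which makes 6 of the 18 libraries of the study. The groups were taken from the transfection and treatment labels of the samples, and every gene that passed a filter on low counts was tested, 15390 of the 60649 genes in the deposited table. In both groups the cells were transfected with a pool of siRNAs, put into androgen-deprived medium the next day, given ethanol as vehicle at 48 h after transfection, and lysed after a further 48 h. The other 12 libraries came from cells with the same siRNAs or with UPF1 siRNA in vehicle or in 5 nM R1881, a synthetic androgen. From each sample 500 ng of RNA was depleted of ribosomal RNA and sequenced. Each gene was targeted with 1 siRNA pool in 1 cell line, so effects of RCOR1 loss and other effects of the pool cannot be told apart. The triplicates are labelled as biological, with no word on separate passages, so p-values measure the spread between these libraries.

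RCOR1, also called CoREST, is the scaffold of a chromatin repressor complex. It binds the demethylase KDM1A (LSD1), which removes methyl groups from lysine 4 of histone H3, and the deacetylases HDAC1 and HDAC2. DNA-binding factors bring the complex to its genes, among them REST at neuronal genes outside neurons, GFI1 and GFI1B in blood cells, and SNAI1 at epithelial genes. In prostate cells KDM1A is known to take part in the androgen response.

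All 12 markers listed for LNCaP-type luminal cells passed the filter on low counts, among them FOLH1, the gene of prostate-specific membrane antigen, at 1685, 1703 and 2004 CPM with RCOR1 siRNA, against 1918, 1649.8 and 1928 CPM with control siRNA. Values in CPM are counts scaled to library size by TMM (trimmed mean of M values). The 6 libraries held between 10299607 and 14402924 counts. Within groups, libraries differed in how much of their RNA was AT-rich. MALAT1, a long RNA retained in the nucleus, was at 31490 CPM in replicate 3 with RCOR1 siRNA, against 12330 and 14120 CPM in replicates 1 and 2, and at 10830 CPM in replicate 2 with control siRNA, against 29080 and 20090 CPM in replicates 1 and 3. Genes with a GC content under 40% deviated in the same way, in log2 CPM against each gene's mean over these 6 libraries. The median deviation was 0.29, -0.19 and -0.17 in RCOR1 siRNA replicates 3, 1 and 2. It was -0.31, 0.28 and 0.12 in control replicates 2, 1 and 3. The counts over all genes, those of several lists and some single calls are also given without both of these libraries. The libraries then left stood at -0.19 and -0.17 with RCOR1 siRNA and at 0.28 and 0.12 with control siRNA. That run therefore ties AT-rich share to the siRNA, and their effects cannot be told apart in it.

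The knockdown was seen in every library. RCOR1 (ENSG00000089902.10, chromosome 14, 102592661 to 102730576) on GRCh38 stood at 15.8, 9.08 and 13.6 CPM with RCOR1 siRNA, against 102, 89.7 and 107 CPM with control siRNA. All libraries with the targeting siRNA lay far below all controls, with means of 12.8 CPM with RCOR1 siRNA and 99.6 CPM with control siRNA. The log2 fold change was -2.95 ± 0.15 (standard error, SE; adjusted p = 1.94e-08 by edgeR). Protein was not analysed here.

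The rest of the CoREST machinery changed little at the RNA level. Of 25 tested genes among 29 listed CoREST scaffolds, enzymes, subunits and recruiting factors, 1 was called higher and 3 were called lower, RCOR1 included, at an edgeR adjusted p under 0.05; over all tested genes 5.31% were called higher and 6.21% lower. The median log2 fold change of the list was -0.016, against -0.0073 over all genes. The paralogue RCOR2 was low, at 2.99, 2.72 and 3.21 CPM with RCOR1 siRNA, against 2.12, 2.77 and 1.38 CPM with control siRNA. Its groups overlapped, and the log2 difference of 0.48 ± 0.33 was not called (adjusted p = 0.407 by edgeR). RCOR3, the other paralogue, was at 47.7, 47.3 and 64.3 CPM against 65.0, 44.9 and 56.3 CPM in RCOR1 siRNA against control libraries, with overlapping groups and a log2 difference of -0.062.

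Among the enzymes, KDM1A was at 69.7, 72.6 and 72.7 CPM with RCOR1 siRNA, against 81.6, 83.8 and 81.5 CPM with control siRNA. The groups did not overlap, but the log2 difference of -0.20 ± 0.084 did not pass the threshold (edgeR adjusted p = 0.146). HDAC1 and HDAC2 had log2 differences of 0.0077 and -0.18 with overlapping groups. Of the subunits, PHF21A (BHC80), the reader of unmethylated lysine 4, had a log2 difference of 0.20 (edgeR adjusted p = 0.101), and its groups did not overlap.

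The 3 called genes other than RCOR1 were small changes. GSE1, a coiled-coil subunit found with CoREST, fell to 294, 274 and 257 CPM with RCOR1 siRNA, against 376, 398 and 378 CPM with control siRNA. The log2 fold change was -0.48 ± 0.069 (edgeR adjusted p = 0.000346). WDR5, a subunit of the opposing lysine 4 methyltransferase complexes, fell by 0.43 (SE 0.093, edgeR adjusted p = 0.00698; adjusted p 0.0684 without both libraries apart in AT-rich share), and the zinc finger subunit ZMYM3 rose by 0.33 (SE 0.089, edgeR adjusted p = 0.025). ZMYM3 lost its call without replicate 1 or 2 of RCOR1 siRNA or replicate 1 or 3 of control siRNA, with edgeR adjusted p up to 0.113. Of the recruiting factors, REST had a log2 difference of -0.016 with overlapping groups, and SNAI1 and GFI1 were under 2 CPM in every library and were not called.

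**Figure D1:**
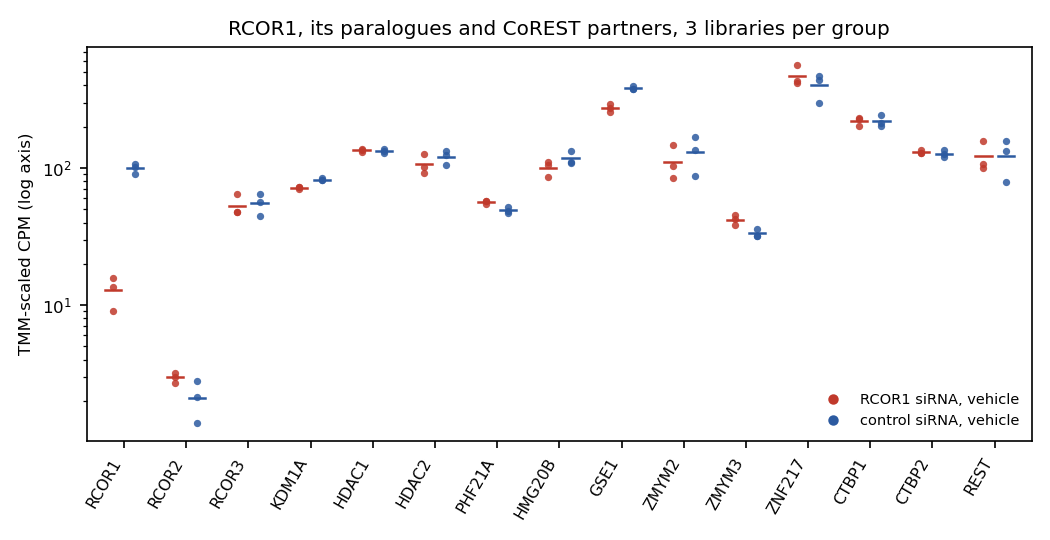
TMM-scaled CPM on a log axis of RCOR1, its paralogues and CoREST partners in the 3 libraries with RCOR1 siRNA (red, left) and the 3 with control siRNA (blue, right); points are libraries and bars their means. RCOR1 shows the widest gap, with means of 12.8 CPM with RCOR1 siRNA and 99.6 CPM with control siRNA, while the groups overlap or lie close for the other genes.

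Across the transcriptome RCOR1 siRNA moved 1772 of 15390 genes (11.5%), 817 higher (5.31%) and 955 lower (6.21%). Most changes were modest, with a median log2 fold change of 0.58 among genes called higher and of -0.56 among genes called lower. A rise of at least 2-fold was called for 179 genes (1.16%) and such a fall for 98 (0.637%). Protein-coding genes made up 671 of the higher and 914 of the lower calls among 12415 tested, and long noncoding RNAs 119 of the higher and 29 of the lower calls among 1960 tested. In 4124 genes (26.8%) the CPM of the groups did not overlap, 2017 higher (13.1%) and 2107 lower (13.7%).

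The first principal component of the 6 libraries held 38.9% of the variance and separated the groups. The second held 30.7% and set RCOR1 siRNA replicate 3 and control replicate 2 at opposite ends. Without these 2 libraries edgeR called 839 genes higher and 756 lower, 1104 of them shared with the full comparison and none in the opposite direction. In the libraries left AT-rich share differed between the groups, so effects of the siRNA and of that share cannot be told apart there. The higher count was 506 without control replicate 1, 507 without RCOR1 siRNA replicate 1 and 533 without control replicate 3, and the lower count was 613 without RCOR1 siRNA replicate 2. When the spread was estimated from the 6 libraries alone, edgeR called 309 higher and 428 lower, and after correction for GC content 1464 and 2041.

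**Figure D2:**
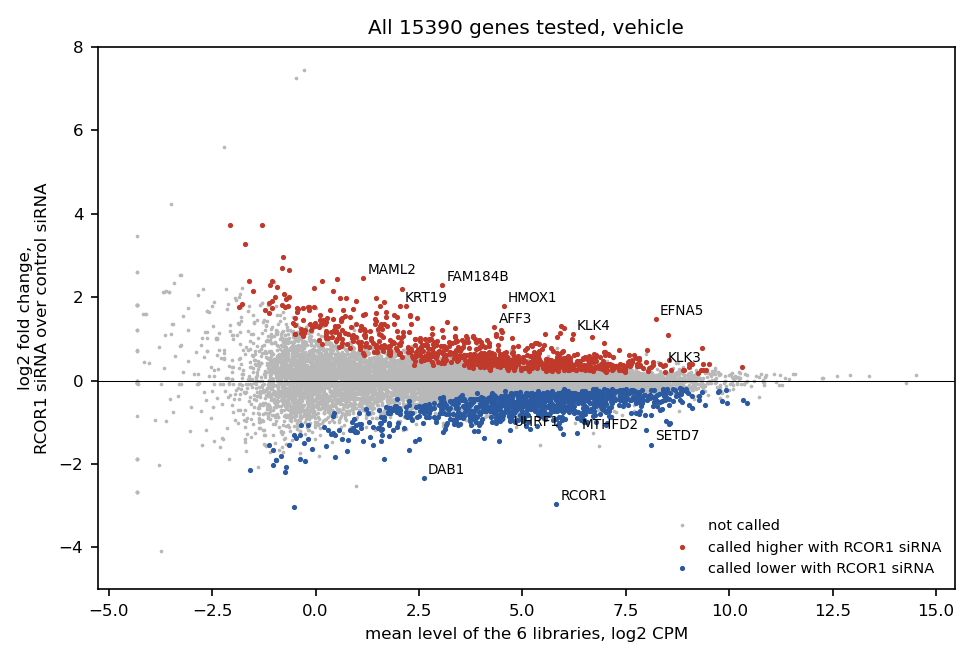
Log2 fold change of RCOR1 siRNA over control siRNA in vehicle against the mean level of the 6 libraries (log2 CPM) for all 15390 genes tested; red points were called higher and blue points called lower by edgeR at an adjusted p under 0.05. Levels under 0.05 CPM are drawn at that value, and RCOR1 stands at -2.95.

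Genes that rose most were mostly of low abundance and encoded proteins of many kinds. The 15 largest rises with a mean of at least 1 CPM and groups that did not overlap ran from 1.78 to 2.47 on the log2 scale, and all 15 were called without each of the 6 libraries in turn. MAML2, a mastermind-like coactivator of Notch, was at 3.12, 3.84 and 4.34 CPM with RCOR1 siRNA, against 0.795, 0.416 and 0.825 CPM with control siRNA. Every RCOR1 siRNA library exceeded every control several-fold (2.47 ± 0.32, edgeR adjusted p = 0.000164). FAM184B was at 12.5, 14.2 and 14.7 CPM with RCOR1 siRNA, against 3.38, 2.22 and 2.84 CPM with control siRNA, again with wide separation (2.29 ± 0.21, edgeR adjusted p = 7.27e-06).

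NCALD, the calcium sensor neurocalcin delta, was at 6.98, 7.05 and 6.75 CPM with RCOR1 siRNA, against 1.39, 1.25 and 1.93 CPM with control siRNA. The 3 knockdown values lay within a narrow band above all controls, and the log2 value was 2.203 ± 0.22 (edgeR adjusted p = 1.58e-05). SCN4B, an auxiliary subunit of voltage-gated sodium channels, rose by 2.44 ± 0.35 (edgeR adjusted p = 0.000343), and CTNNA2, the catenin that links neuronal cadherins to actin, by 2.38 ± 0.36 (edgeR adjusted p = 0.000532). Both stayed under 3 CPM in every library.

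HMOX1, the haem-degrading oxygenase, was at 33.3, 40.5 and 35.3 CPM with RCOR1 siRNA, against 9.28, 10.7 and 11.6 CPM with control siRNA. All knockdown libraries were above all controls by a wide margin (1.80 ± 0.26, edgeR adjusted p = 0.0004). HEPH, hephaestin, a copper-dependent ferroxidase, was at 4.11, 5.52 and 5.14 CPM with RCOR1 siRNA, against 1.33, 1.18 and 1.47 CPM with control siRNA, with no overlap (1.89 ± 0.20, edgeR adjusted p = 2.36e-05).

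KRT19, a simple-epithelial keratin, was at 5.92, 7.47 and 5.94 CPM with RCOR1 siRNA, against 2.25, 1.80 and 1.47 CPM with control siRNA. Its lowest knockdown value was more than its highest control value (1.78 ± 0.18, edgeR adjusted p = 1.72e-05). The trefoil peptide TFF1 rose by 1.98 ± 0.32, the phospholipase PLA2G7 that inactivates platelet-activating factor by 1.78 ± 0.35, the ependymin-related EPDR1 by 1.78 ± 0.19, the phospholipase C isoform PLCB2 by 1.98 ± 0.33 and the acyl-CoA synthetase ACSM1 by 1.90 ± 0.27, with edgeR adjusted p between 2.94e-05 and 0.00331. The long noncoding RNAs LINC00842 and RP11-288G3.4 completed the 15, at 2.14 and 1.99.

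The smallest adjusted p of all genes tested was that of EFNA5 (ENSG00000184349.14, chromosome 5, 107376889 to 107670895), a membrane-anchored ephrin ligand that guides axons and signals through Eph receptors. It was at 437, 435 and 441 CPM with RCOR1 siRNA, against 163, 156 and 154 CPM with control siRNA. The libraries of each group lay within a few percent of each other and the groups were far apart (1.47 ± 0.051, edgeR adjusted p = 7.61e-11). The highest-level gene that rose, the secreted protease ADAMTS1, was at 1406, 1369 and 1455 CPM with RCOR1 siRNA, against 1127, 1085 and 1155 CPM with control siRNA, a small change without overlap (0.33 ± 0.047, edgeR adjusted p = 0.000343).

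Among the falls, the 15 largest ran from -2.95 for RCOR1 to -1.40 on the log2 scale, and 11 of the 15 were called without each library in turn. DAB1, the reelin signalling adaptor, was at 2.37, 1.54 and 2.09 CPM with RCOR1 siRNA, against 11.2, 8.32 and 11.1 CPM with control siRNA. Each knockdown library lay well under each control (-2.34 ± 0.29, edgeR adjusted p = 0.000172). DHRS2, a short-chain dehydrogenase, was at 1.495, 1.26 and 1.29 CPM with RCOR1 siRNA, against 4.37, 5.76 and 4.86 CPM with control siRNA, with a similar gap (-1.88 ± 0.18, edgeR adjusted p = 1.15e-05).

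SETD7 (-1.53 ± 0.17, edgeR adjusted p = 4e-05) was the most abundant of the steep falls. SETD7 (ENSG00000145391.14, chromosome 4, 139495941 to 139606699) encodes a methyltransferase of histone H3 lysine 4 and of other proteins. It was at 133, 125 and 168 CPM with RCOR1 siRNA, against 456, 324 and 454 CPM with control siRNA. Every knockdown library lay far under every control. RAB15, a small GTPase of endosomal recycling, was at 12.8, 10.7 and 11.2 CPM with RCOR1 siRNA, against 30.5, 33.1 and 30.7 CPM with control siRNA, with tight groups (-1.44 ± 0.11, edgeR adjusted p = 1.54e-06).

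Others in this set were low genes. The secreted protease HTRA1 fell by 1.69, the kainate receptor subunit GRIK1 by 1.45, the axon guidance ligand SLIT1 by 1.42, and the pseudogene ZNF812P by 1.82, with edgeR adjusted p between 0.000363 and 0.00684. The long noncoding RNA PRNCR1 (-1.54) and PIGW (-1.40), an acyltransferase of GPI anchor synthesis, lost their calls without RCOR1 siRNA replicate 2, with edgeR adjusted p of 0.0572 and 0.061. CTD-3220F14.3 (-1.58) and RP11-793L10.2 (-1.44) lost their calls without RCOR1 siRNA replicate 1 or 2 or control replicate 3; the first also lost it without control replicate 2 and the second without control replicate 1. ACTRT3 (-1.67) and RP11-816J6.3 (-1.46) overlap each other on chromosome 3 on opposite strands, and MYNN (-0.91) begins next to them. The strand setting of the counting is not given in the sources used here, so reads of these genes cannot be told apart.

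**Figure D3:**
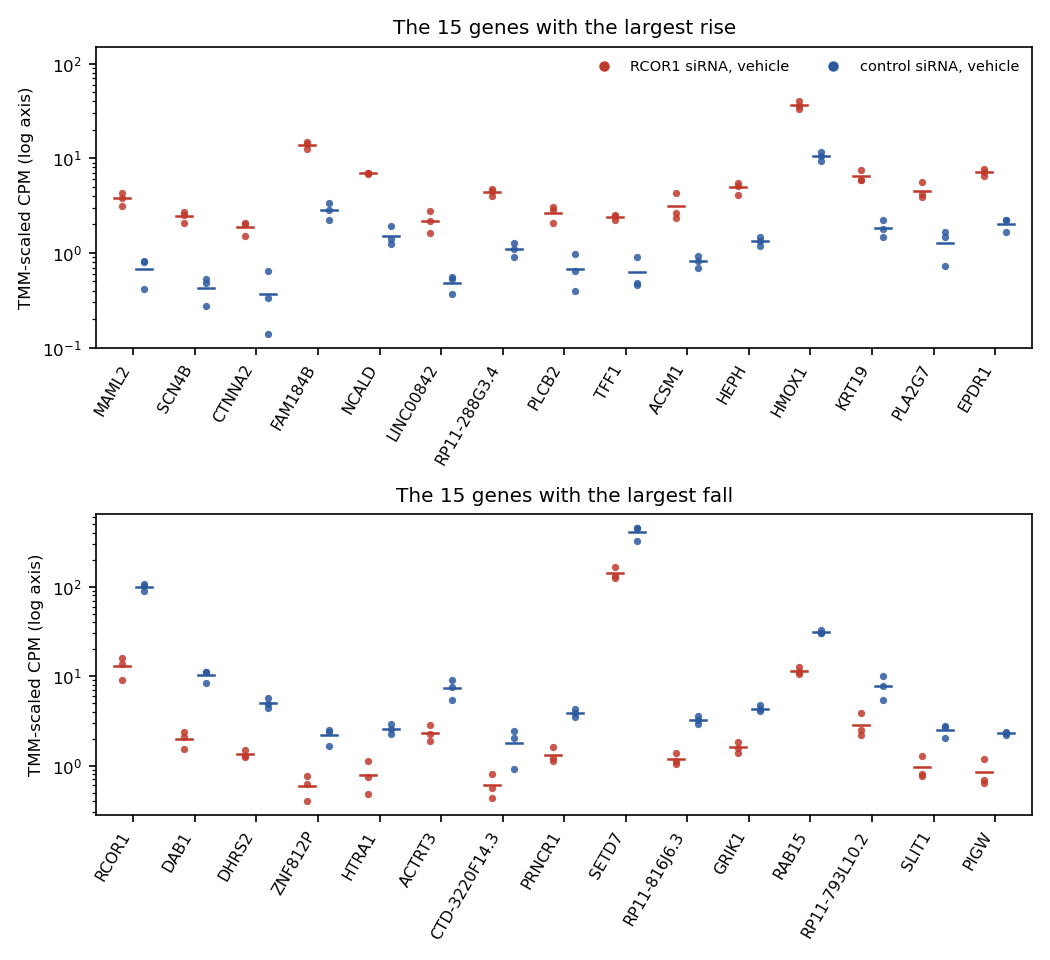
TMM-scaled CPM on a log axis of the 15 genes with the largest rise (top) and the 15 with the largest fall (bottom); red points are the 3 libraries with RCOR1 siRNA, blue points the 3 with control siRNA, and bars are means. In none of the 30 genes do the groups overlap, as the choice of genes required.

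Of the 5 called genes with the highest levels, 4 fell. NFIX, a nuclear factor I transcription factor that partners FOXA1 at prostate enhancers, was at 858, 824 and 742 CPM with RCOR1 siRNA, against 1098, 1304 and 1127 CPM with control siRNA. All knockdown libraries were under all controls (-0.54 ± 0.083, edgeR adjusted p = 0.000538). The fatty acid synthase gene FASN fell by 0.53 (SE 0.13, edgeR adjusted p = 0.0118), a call that was lost without RCOR1 siRNA replicate 3 or control replicate 2, at adjusted p up to 0.0576. HDLBP, the RNA-binding protein vigilin, was at -0.22 (edgeR adjusted p = 0.0174) and was not called without RCOR1 siRNA replicate 1 or 2 or control replicate 2.

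Cell cycle genes fell. Of 42 DNA replication and S phase genes tested, all from a list of 42, 29 fell and none rose (median log2 fold change -0.62). Of 38 mitotic genes, 21 fell and none rose, with a median of -0.81; the median of all genes was -0.0073, and 6.21% of all genes fell. All 42 and all 38 had negative log2 values, and in 39 and 27 of them every knockdown library lay under every control (13.7% of all genes). The summed level of the S phase list was 1497, 1462 and 1485 CPM with RCOR1 siRNA, against 2153, 2452 and 2178 CPM with control siRNA, and that of the mitosis list 964, 991 and 1250.3 CPM against 2031, 1773 and 1721 CPM. In bulk RNA, fewer cycling cells and less RNA per cycling cell cannot be told apart. Without each of the 6 libraries in turn, 24 to 28 S phase genes and 15 to 19 mitotic genes were called lower, and without the 2 libraries apart in AT-rich share, 20 and 16.

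Promoters of some of these genes carry well-known elements. E2F factors bind short GC-rich sites at S phase genes, and the CHR element TTTGAA marks many mitotic genes that the DREAM complex represses. Below are RefSeq promoters on GRCh38.p14, from 250 bases before to 50 after the start, of 2 called S phase genes and 1 called mitotic gene. They were chosen among genes that fell and whose promoter holds the letters, so a match in each was fixed by the choice. They are shown to let the elements be seen in place, and capitals mark the match.
UHRF1 chr19:4909251-4909550, plus strand: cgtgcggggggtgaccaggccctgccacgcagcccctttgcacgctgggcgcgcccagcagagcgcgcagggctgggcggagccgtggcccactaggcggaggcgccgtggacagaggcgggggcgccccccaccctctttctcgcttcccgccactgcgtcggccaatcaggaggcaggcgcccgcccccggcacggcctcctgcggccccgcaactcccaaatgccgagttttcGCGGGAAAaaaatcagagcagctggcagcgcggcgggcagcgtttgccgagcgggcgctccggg
CDC6 chr17:40287629-40287928, plus strand: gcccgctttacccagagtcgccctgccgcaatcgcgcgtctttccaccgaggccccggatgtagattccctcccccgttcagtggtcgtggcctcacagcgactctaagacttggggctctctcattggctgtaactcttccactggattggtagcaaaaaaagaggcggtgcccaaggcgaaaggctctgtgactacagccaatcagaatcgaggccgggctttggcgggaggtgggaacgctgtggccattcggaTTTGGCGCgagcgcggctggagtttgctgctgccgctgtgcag
CENPA chr2:26785806-26786105, plus strand: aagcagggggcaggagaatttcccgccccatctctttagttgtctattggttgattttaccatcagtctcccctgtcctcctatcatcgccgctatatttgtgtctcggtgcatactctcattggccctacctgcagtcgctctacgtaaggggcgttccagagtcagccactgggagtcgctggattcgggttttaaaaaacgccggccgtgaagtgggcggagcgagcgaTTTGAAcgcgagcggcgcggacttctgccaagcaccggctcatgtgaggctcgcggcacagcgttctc
The match begins 14 bases before the start in UHRF1, 7 bases after it in CDC6 and 18 bases before it in CENPA. The letters TTTCCCGC, TTTGGCGC, TTTCGCGC or TTTGCCGC were searched on both strands. They were found in 20 of 35 S phase genes with a promoter in the table (57.1%), in 15 of the 25 that fell and 5 of the 10 not called, against 3.33% of 27305 promoters of all genes and 5.35% of 10710 promoters of tested genes. TTTGAA on either strand was found in 21 of 32 mitotic genes (65.6%), in 8 of the 17 that fell and 13 of the 15 not called, against 15.4% of all promoters and 9.65% of those of tested genes. A match describes the letters and is not evidence of binding.

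In S phase genes the falls spanned regulators, licensing and nucleotide supply. UHRF1, which couples DNA methylation to replication, was at 19, 13.3 and 15.3 CPM with RCOR1 siRNA, against 35.1, 39.6 and 33.1 CPM with control siRNA. All knockdown libraries lay under all controls (-1.18 ± 0.20, edgeR adjusted p = 0.00106). TK1, the thymidine salvage kinase, was at 42.1, 41.5 and 29.9 CPM with RCOR1 siRNA, against 68.2, 97.0 and 71.5 CPM with control siRNA, without overlap (-1.06 ± 0.18, edgeR adjusted p = 0.00128). E2F8, an atypical E2F repressor, was at -1.15 (edgeR adjusted p = 0.00944; adjusted p 0.05 without RCOR1 siRNA replicate 1), and its relative E2F7 at -1.06 kept its call in 1 of the 6 leave-one-out comparisons.

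In mitotic genes the falls were of similar size. MYBL2 (B-MYB), which activates late cell cycle genes, was at 43.1, 41.2 and 34.0 CPM with RCOR1 siRNA, against 66.2, 99.7 and 71.8 CPM with control siRNA, with no overlap (-1.01 ± 0.17, edgeR adjusted p = 0.00124). AURKA, the centrosomal kinase, was at 19.1, 19.2 and 16.0 CPM with RCOR1 siRNA, against 34.3, 35.9 and 34.8 CPM with control siRNA, and each group was tight (-0.95 ± 0.11, edgeR adjusted p = 7.07e-05). Cyclin A2 CCNA2 fell by 0.97 and the cytokinesis kinesin KIF20A by 0.94, with edgeR adjusted p of 0.00412 and 0.00421. MKI67, the proliferation antigen and the highest-level member, was at 74.3, 89.6 and 144 CPM with RCOR1 siRNA, against 254, 138 and 165 CPM with control siRNA. Its groups overlapped, and its log2 difference of -0.86 ± 0.35 was not called (edgeR adjusted p = 0.139).

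Replication-dependent histone genes stood lower as well, but this count rested on few libraries. Of 44 tested genes of 66 found by symbol, 20 fell and none rose, against 6.21% lower over all genes. Their median log2 fold change was -0.53, against -0.0073 over all genes. The largest called fall was in H2AC16, at 13.2, 17.6 and 14.0 CPM with RCOR1 siRNA, against 26.1, 35.6 and 25.8 CPM with control siRNA (-0.97 ± 0.21, edgeR adjusted p = 0.00684; adjusted p 0.07 without both libraries apart in AT-rich share). Control replicate 2 was the highest library, as it was for the summed list, 2546, 2788 and 2342 CPM with RCOR1 siRNA and 2975, 4224 and 3169.7 CPM with control siRNA. Without control replicate 2 the count was 3, without RCOR1 siRNA replicate 3 it was 3, without RCOR1 siRNA replicate 1 it was 6, and without both libraries apart in AT-rich share it was 1, with a median of -0.29. Many of these GC-rich genes closely resemble others of their own histone family, so the assignment of reads among them is uncertain.

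Around the G1 transition, 2 of 19 tested cyclin, kinase and inhibitor genes rose and 4 fell (5.31% and 6.21% of all genes; 1 to 2 and 2 to 4 without each library in turn). CDKN2B, the CDK4 and CDK6 inhibitor p15, was at 9.22, 12.01 and 13.8 CPM with RCOR1 siRNA, against 5.37, 5.06 and 4.49 CPM with control siRNA. Each knockdown library lay above each control (1.22 ± 0.17, edgeR adjusted p = 0.000343). CDKN1A, the inhibitor p21, rose by 0.49 ± 0.14 (edgeR adjusted p = 0.0343), a call lost in 4 of 6 leave-one-out comparisons with adjusted p up to 0.13. CDK2 fell by 0.50 (SE 0.079, edgeR adjusted p = 0.000713), and MYC, a driver of growth and of entry into the cycle, fell to 95.3, 97.7 and 87.2 CPM with RCOR1 siRNA, against 141, 167 and 139 CPM with control siRNA, with no overlap (-0.67 ± 0.11, edgeR adjusted p = 0.00076). Of 30 p53 targets, 4 rose and 2 fell, and 1 to 4 were called higher without each library in turn; TP53INP1, a stress-induced autophagy and apoptosis gene, fell to 264, 214 and 271 CPM with RCOR1 siRNA, against 530.4, 428 and 549 CPM with control siRNA (-1.01 ± 0.12, edgeR adjusted p = 7.83e-05).

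Of 31 tested targets of the integrated stress response, which ATF4 drives when amino acids are short, 12 fell and 1 rose, with a median of -0.28 (6.21% of all genes fell and 5.31% rose). MTHFD2, the mitochondrial folate dehydrogenase, was at 51.7, 40.6 and 49.96 CPM with RCOR1 siRNA, against 113, 113 and 114 CPM with control siRNA. The groups were tight and far apart (-1.25 ± 0.11, edgeR adjusted p = 3.67e-06). PSAT1, of serine synthesis, was at 159, 145 and 167 CPM with RCOR1 siRNA, against 265, 281 and 262 CPM with control siRNA, again without overlap (-0.78 ± 0.077, edgeR adjusted p = 1.21e-05). PHGDH, the first enzyme of that route and the highest-level member, fell by 0.62 (SE 0.11, edgeR adjusted p = 0.00163).

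The glutamine carrier SLC1A5 was at 63.0, 59.6 and 51.6 CPM with RCOR1 siRNA, against 101, 134 and 102 CPM with control siRNA (-0.95 ± 0.12, edgeR adjusted p = 0.000148), and the glycine carrier SLC6A9 fell by 0.84 (edgeR adjusted p = 0.000551). DDIT3, the stress factor CHOP, was the member that rose, at 0.38, and ATF4 itself was at -0.23 and not called. Without each library in turn 9 to 12 members were called lower, and without both libraries apart in AT-rich share 8. No member was called higher without both of these, or without RCOR1 siRNA replicate 2 or 3 or control replicate 3 alone. Of 18 cytosolic aminoacyl-tRNA synthetases, which charge tRNAs, 6 fell and none rose (median -0.28; 2 to 5 lower without each library in turn, and 6.21% of all genes lower). With the spread estimated from the 6 libraries alone, 2 synthetases were called lower. GARS1, for glycine, was at 167, 175 and 184 CPM with RCOR1 siRNA, against 242, 261 and 264 CPM with control siRNA, with no overlap (-0.54 ± 0.06, edgeR adjusted p = 3.31e-05).

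Of 33 genes of protein folding and export in the endoplasmic reticulum 5 fell and 1, AGR2, rose, with a median of -0.15 (6.21% of all genes fell and 5.31% rose; 3 to 5 members fell without each library in turn). With the spread estimated from the 6 libraries alone, 1 member was called lower and none higher. AGR2 had an edgeR adjusted p of 0.0756 without both libraries apart in AT-rich share. EDEM1, which sends misfolded proteins to degradation, fell by 0.44 (SE 0.068, edgeR adjusted p = 0.000548), and the highest-level member calreticulin CALR was at -0.089 and not called. Of 21 cytosolic chaperones and heat shock factors 1 fell, the steroid receptor co-chaperone FKBP4, at -0.39 (edgeR adjusted p = 0.0175; not called without RCOR1 siRNA replicate 3 or control replicate 2).

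Of 31 sterol genes 6 fell and none rose (median -0.21), and 6.21% of all genes fell. Without each library in turn 2 to 5 were called lower, and without both libraries apart in AT-rich share 2. With the spread estimated from the 6 libraries alone, 1 was called lower. Of 31 fatty acid genes 5 fell and 3 rose (5.31% of all genes rose); 2 to 5 fell and 2 to 4 rose without each library in turn, and 3 fell and 4 rose without both libraries. The desaturase SCD was at 561, 534 and 546 CPM with RCOR1 siRNA, against 785, 887 and 808 CPM with control siRNA, with tight groups (-0.60 ± 0.06, edgeR adjusted p = 1.5e-05), while ACAA2, the mitochondrial thiolase of beta-oxidation, was at 14.7, 15.3 and 15.8 CPM with RCOR1 siRNA, against 7.75, 7.84 and 7.88 CPM with control siRNA, and all knockdown libraries lay well above the controls (0.96 ± 0.088, edgeR adjusted p = 6.12e-06).

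Of 33 glycolysis and hypoxia genes 9 fell and 1 rose (median -0.17; 6.21% of all genes fell and 5.31% rose), but 4 to 8 were called lower without each library in turn and 1 without both libraries apart in AT-rich share. With the spread estimated from the 6 libraries alone, 1 was called lower and none higher. TKT, transketolase of the pentose phosphate pathway, fell to 192, 197 and 162 CPM with RCOR1 siRNA, against 254, 323 and 264 CPM with control siRNA (-0.61 ± 0.12, edgeR adjusted p = 0.00291), and GAPDH, the highest-level member, was at -0.031 and not called. Among 21 NRF2 targets and regulators, which serve antioxidant defence, HMOX1 rose and 5 genes fell, 2 to 4 without each library in turn. Of these the quinone reductase NQO1 was at 92.3, 98.8 and 94.4 CPM with RCOR1 siRNA, against 143, 158 and 162 CPM with control siRNA (-0.70 ± 0.094, edgeR adjusted p = 0.000209) and the peroxiredoxin PRDX1 fell by 0.51 (SE 0.067, edgeR adjusted p = 0.000172). Polyamine genes included falls of the arginase ARG2, at 63.5, 63.0 and 63.1 CPM with RCOR1 siRNA, against 117, 140.0 and 118 CPM with control siRNA (-0.98 ± 0.10, edgeR adjusted p = 1.43e-05), and of ornithine decarboxylase ODC1 by 0.39 (edgeR adjusted p = 0.00581; adjusted p 0.0691 without both libraries), 2 of 11 tested.

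Of 47 nuclear-encoded respiratory subunits 3 rose and none fell (median 0.087; 0 to 3 higher without each library in turn), and of 77 ribosomal protein genes 4 rose and none fell (median 0.14), shares near the 5.31% of all genes called higher. None of the 4 ribosomal calls was made with scaling by library size alone, or without control replicate 1 or 3 or RCOR1 siRNA replicate 2 or 3. Log2 values, most of them small and not called, were positive in 40 of the 47 respiratory and 73 of the 77 ribosomal genes. In 9 and 17 of them every knockdown library lay above every control (13.1% of all genes), and in none under every control. None of the 13 mitochondrially encoded genes was called. SR and hnRNP splicing factors had 7 falls and 1 rise among 35, with a median of -0.22 (6.21% of all genes fell). Without each library in turn 2 to 5 were called lower, and with the spread estimated from the 6 libraries alone 1. SRSF9 was at 109, 104 and 96.1 CPM with RCOR1 siRNA, against 159.7, 184 and 170.3 CPM with control siRNA, without overlap (-0.73 ± 0.075, edgeR adjusted p = 1.58e-05).

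Genes of the androgen response changed in both directions. Of 43 genes that androgen raises in prostate cells, 12 rose and 5 fell, with a median of 0.21 that was 0.078 without RCOR1 siRNA replicate 3 and 0.095 without both libraries apart in AT-rich share. Of 19 tested genes that androgen lowers, 7 fell and 1 rose, with a median of -0.30 (5.31% of all genes rose and 6.21% fell). Without each library in turn, 8 to 11 androgen-induced genes were called higher and 5 to 6 lower, and 4 to 7 androgen-repressed genes were called lower. STEAP4, ORM1 and PGC, all under 1 CPM in every one of the 6 libraries, were not called.

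AFF3, a transcription elongation factor, was at 26.7, 29.6 and 28.99 CPM with RCOR1 siRNA, against 11.5, 12.6 and 10.7 CPM with control siRNA. Each knockdown library was far above each control (1.29 ± 0.10, edgeR adjusted p = 1.46e-06). KLK4, a prostate kallikrein protease, was at 99.2, 115 and 90.5 CPM with RCOR1 siRNA, against 47.6, 54.2 and 39.0 CPM with control siRNA, with wide separation (1.11 ± 0.12, edgeR adjusted p = 2.81e-05). KLK2 was at 20.8, 21.0 and 19.3 CPM with RCOR1 siRNA, against 13.6, 14.9 and 12.6 CPM with control siRNA, without overlap (0.57 ± 0.10, edgeR adjusted p = 0.00163). KLK3, the gene of prostate-specific antigen, was at 373, 406 and 355 CPM with RCOR1 siRNA, against 268, 351 and 270.1 CPM with control siRNA; it rose by 0.35 ± 0.11 (edgeR adjusted p = 0.0407) and lost its call in 4 of 6 leave-one-out comparisons, with adjusted p up to 0.162. KLK2 and KLK3 are close paralogues and could share reads. TMPRSS2, another classic target, had a log2 difference of 0.12 and was not called.

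Not all induced genes rose. TRPM8, a cold-activated channel of prostate epithelium, was at 5.05, 3.98 and 6.18 CPM with RCOR1 siRNA, against 10.7, 11.2 and 13.9 CPM with control siRNA. Each knockdown value was under each control (-1.24 ± 0.14, edgeR adjusted p = 3.31e-05). GNMT, glycine N-methyltransferase, fell by 0.93 (SE 0.13, edgeR adjusted p = 0.000225).

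In the repressed list DDC, the decarboxylase of dopamine and serotonin synthesis, was at 35.7, 36.5 and 38.0 CPM with RCOR1 siRNA, against 90.0, 87.5 and 90.9 CPM with control siRNA. Both groups were tight and far apart (-1.28 ± 0.12, edgeR adjusted p = 6.37e-06). UGT2B17, which glucuronidates and so inactivates androgens, was at 22.2, 27.3 and 28.2 CPM with RCOR1 siRNA, against 52.8, 53.4 and 59.8 CPM with control siRNA, without overlap (-1.09 ± 0.12, edgeR adjusted p = 3.31e-05); its close paralogue UGT2B15 could share reads. DAPK1, a death-associated kinase, was the member that rose, at 52.3, 53.6 and 48.2 CPM with RCOR1 siRNA, against 26.0, 25.5 and 31.6 CPM with control siRNA (0.89 ± 0.17, edgeR adjusted p = 0.00252).

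Of 24 tested prostate lineage and cofactor genes 3 rose and 2 fell (5.31% and 6.21% of all genes). KLF4, a Kruppel-like epithelial differentiation factor, was at 31.3, 32.7 and 28.7 CPM with RCOR1 siRNA, against 14.0, 11.8 and 14.6 CPM with control siRNA. Every knockdown library was well above every control (1.202 ± 0.14, edgeR adjusted p = 5.09e-05). SOX9, a progenitor and ductal factor, rose by 0.91 ± 0.17 (edgeR adjusted p = 0.00234), and the epithelial ETS factor ELF3 by 0.60 ± 0.13 (edgeR adjusted p = 0.0067). FOXA1 and GATA2, at -0.049 and -0.07, were not called.

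Of 24 luminal markers, against the same shares of all genes, 2 rose, KRT19 and CLDN4, and 2 fell, TRPM8 and prostatic acid phosphatase ACP3, the last at -0.45 (edgeR adjusted p = 0.000363). CLDN4, a tight junction claudin, lost its call in 4 of 6 leave-one-out comparisons. Keratins KRT8 and KRT18, at -0.17 and -0.20, were not called. Of 6 basal markers tested among 14 listed, the laminin subunit LAMB3 rose by 1.09 ± 0.25 (edgeR adjusted p = 0.0102) and the integrins ITGB4 and ITGA6 fell, each call of the integrins being lost without at least 2 of the 6 libraries.

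REST-repressed neuronal genes are the best-known CoREST targets. Of 53 listed, 25 passed the filter on low counts. None was called higher and 1 lower, STMN3, a microtubule regulator, at -0.87 (SE 0.15, edgeR adjusted p = 0.00141). Over all genes 5.31% were called higher and 6.21% lower, so few calls would be made among 25 genes at those shares. The median of the list was -0.055, and it was 0.067 without the 2 libraries apart in AT-rich share. The highest-level member, the vesicle protein SYT4, was at 200.05, 225 and 339.6 CPM with RCOR1 siRNA, against 271, 149.7 and 253 CPM with control siRNA. Its groups overlapped, with RCOR1 siRNA replicate 3 the highest library and control replicate 2 the lowest, the same 2 libraries that stand apart in AT-rich share. Of 25 neuroendocrine markers and drivers 8 were tested and none called, and of 27 blood genes repressed by GFI1 and GFI1B 6 were tested and none called. With so few genes tested, the lack of calls does not set these lists apart from all genes.

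Of 34 tested axon guidance and adhesion genes 6 were called higher and 3 lower, with a median of -0.031 (5.31% and 6.21% of all genes; 4 to 6 and 2 to 4 without each library in turn). Besides EFNA5 and SLIT1, the guidance ligand SLIT3 was at 1.56, 1.12 and 0.643 CPM with RCOR1 siRNA, against 0.331, 0.0694 and 0.0917 CPM with control siRNA, under 2 CPM in all libraries (2.65 ± 0.57, edgeR adjusted p = 0.00847). SEMA3B, a secreted semaphorin, was at 27.2, 28.1 and 26.8 CPM with RCOR1 siRNA, against 14.8, 15.2 and 15.8 CPM with control siRNA, with tight groups (0.84 ± 0.11, edgeR adjusted p = 0.000169).

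Extracellular matrix, integrin and cadherin genes had 7 rises and 3 falls among 33 tested (median 0.16; 6 to 7 rises without each library in turn, and 5.31% of all genes higher and 6.21% lower). THBS1, the matrix glycoprotein thrombospondin 1, was at 82.7, 85.5 and 91.0 CPM with RCOR1 siRNA, against 34.8, 34.9 and 35.4 CPM with control siRNA. Its 3 knockdown values all lay far above the controls (1.303 ± 0.12, edgeR adjusted p = 6.4e-06). FBN1, fibrillin of microfibrils, was at 3.30, 4.12 and 5.14 CPM with RCOR1 siRNA, against 1.19, 1.46 and 1.38 CPM with control siRNA (1.63 ± 0.21, edgeR adjusted p = 0.000131), and COL4A2, a basement membrane collagen, rose by 1.25 ± 0.27 (edgeR adjusted p = 0.00729). FN1, the highest-level mesenchymal gene listed, was at -0.14 and not called.

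Of 17 tested of 37 listed HOX genes, which set position along the body axis, 4 rose (5.31% of all genes) and none fell, with a median of 0.45, and 4 or 5 were called higher without each library in turn. Of the HOXC cluster, HOXC4 rose by 0.91 ± 0.11, HOXC13 by 0.85 ± 0.15 and HOXC6 by 0.52 ± 0.087, with edgeR adjusted p of 7.69e-05, 0.00127 and 0.000934. HOXB13, the prostate lineage gene and highest-level member, was at -0.16 and not called.

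In the insulin and growth factor list, 3 of 32 rose and 2 fell (5.31% and 6.21% of all genes; 0 to 1 fell without each library in turn). The insulin receptor substrates IRS1 and IRS2, docking proteins of insulin and IGF1 receptors, both rose: IRS1 was at 35.1, 40.1 and 32.3 CPM with RCOR1 siRNA, against 18.2, 17.8 and 17.1 CPM with control siRNA (1.02 ± 0.12, edgeR adjusted p = 4.88e-05), and IRS2 rose by 0.94 ± 0.14 (edgeR adjusted p = 0.000385). In neither gene did the groups overlap. Of 27 Wnt genes 3 rose and 7 fell. Without each library in turn 2 to 5 were called lower, and with the spread estimated from the 6 libraries alone 2. RNF43, a ubiquitin ligase that removes Wnt receptors, rose by 0.74 ± 0.11 (edgeR adjusted p = 0.000547), and MYC was among the falls. Of 19 Notch genes 2 rose, MAML2 and the target HEY1 (0.84 ± 0.19, edgeR adjusted p = 0.0102; adjusted p 0.0865 without both libraries apart in AT-rich share), and 5 fell, 1 to 5 without each library in turn. Of 32 TGF-beta and BMP genes 2 rose and 2 fell; ID2, an inhibitor of basic helix-loop-helix factors, was at 43.1, 46.2 and 41.4 CPM with RCOR1 siRNA, against 24.6, 26.8 and 25.1 CPM with control siRNA, with tight groups (0.77 ± 0.076, edgeR adjusted p = 1.17e-05).

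Of 40 tested interferon-stimulated genes 5 rose (5.31% of all genes) and none fell, with a median of 0.18, and 0 to 5 were called higher without each library in turn. RSAD2, the antiviral enzyme viperin, was at 19.7, 24.5 and 20.5 CPM with RCOR1 siRNA, against 14.5, 14.7 and 14.9 CPM with control siRNA. All 3 knockdown libraries exceeded the controls (0.55 ± 0.13, edgeR adjusted p = 0.01; adjusted p 0.0565 without RCOR1 siRNA replicate 2). NFKBIZ, an atypical IkappaB, rose by 1.03 ± 0.14 (edgeR adjusted p = 0.000273), as the higher call among 26 NF-kappaB genes, and the NKG2D ligand gene RAET1L rose by 1.03 ± 0.21 (edgeR adjusted p = 0.00416). Of small RNA pathway genes the Argonaute gene AGO4 was at 129, 119 and 142 CPM with RCOR1 siRNA, against 87.7, 71.6 and 89.8 CPM with control siRNA (0.64 ± 0.10, edgeR adjusted p = 0.000731) and the GW182 silencing protein gene TNRC6B fell to 149, 134 and 177 CPM with RCOR1 siRNA, against 415, 259.7 and 375 CPM with control siRNA (-1.19 ± 0.18, edgeR adjusted p = 0.000436). Neither pair of groups overlapped.

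Of 32 listed markers of other cell types 8 passed the filter, and the summed level of all 32 was 44.7, 40.2 and 36.8 CPM with RCOR1 siRNA, against 34.7, 38.8 and 33.0 CPM with control siRNA. The endothelial CDH5, the T cell CD3E, the fibroblast COL1A2 and DCN, the muscle DES and the basal KRT5 and TP63 had 0 counts in all 6 libraries. Other markers of the same cell types were present. Summed counts with RCOR1 siRNA and with control siRNA were 506 and 384 for fibroblast COL1A1 and 177 and 162 for COL3A1. They were 167 and 118 for smooth muscle ACTA2, 47 and 31 for basal KRT14 and 319 and 479 for endothelial VWF. Of the tested markers, TAGLN of smooth muscle and TTR of liver rose by 1.01 ± 0.20 and 1.35 ± 0.24, and the endothelial VWF fell by 0.67, with edgeR adjusted p of 0.00399, 0.00171 and 0.00876. The call of VWF was lost without both libraries apart in AT-rich share (edgeR adjusted p 0.104).

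**Figure D4:**
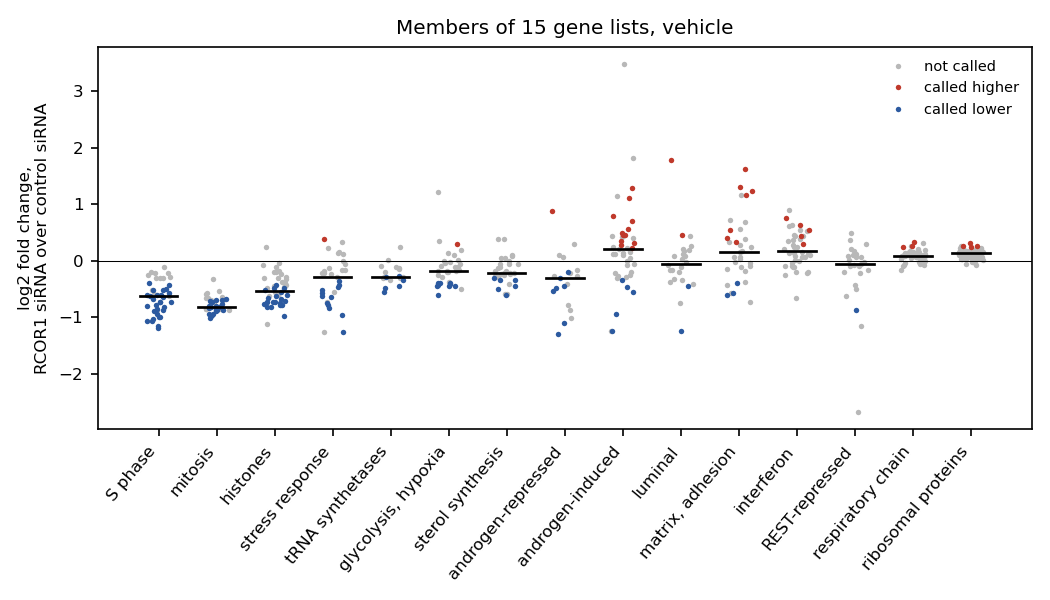
Log2 fold change of RCOR1 siRNA over control siRNA in vehicle for the tested members of 15 gene lists; each point is a gene, red where called higher, blue where called lower, grey where not called, and black bars are medians. S phase, mitosis and histone lists have medians of -0.62, -0.81 and -0.53, while REST-repressed neuronal genes have a median of -0.055.

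The same knockdown in R1881 was set against its effect in vehicle to ask which changes depended on androgen. In R1881 edgeR called 1907 genes (12.4%), 779 higher (5.06%) and 1128 lower (7.33%). Of the genes called in vehicle, 332 rose and 449 fell in both, 13 rose in vehicle and fell in R1881, and 6 did the reverse. The difference between the effects, R1881 minus vehicle, was called for 118 genes (0.767%), 35 with a more positive effect in R1881 (0.227%) and 83 with a more negative one (0.539%). With the spread estimated from the libraries of the compared groups alone, 7 and 17 were called. Leaving out single libraries gave 12 to 30 and 37 to 96, lowest without RCOR1 siRNA replicate 2 in R1881 and without control replicate 1 in R1881.

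Of 43 androgen-induced genes 1 had a positive and 12 a negative called difference (0.227% and 0.539% of all genes). In R1881 3 of them were called higher and 19 lower with RCOR1 siRNA, against 12 higher and 5 lower in vehicle. For KLK2 the R1881 values were 311, 259.9 and 289.8 CPM with RCOR1 siRNA, against 439, 400.0 and 382 CPM with control siRNA. The knockdown libraries were under the controls there and above them in vehicle, so effects of -0.50 in R1881 and 0.57 in vehicle differed by -1.08 ± 0.14 (edgeR adjusted p = 0.00099). TMPRSS2 in R1881 was at 1507, 1377 and 1432 CPM with RCOR1 siRNA, against 2443, 2269.6 and 2283 CPM with control siRNA. Those groups did not overlap, and an effect of -0.70 in R1881 against 0.12 in vehicle gave a difference of -0.82 ± 0.10 (edgeR adjusted p = 0.000804).

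AGR2, a disulfide isomerase of secretory epithelium, was at 16.4, 17.5 and 15.5 CPM with RCOR1 siRNA, against 40.8, 43.9 and 42.9 CPM with control siRNA in R1881, and in vehicle at 9.03, 10.4 and 11.5 CPM with RCOR1 siRNA, against 7.22, 7.01 and 7.79 CPM with control siRNA. It was lower with the knockdown in R1881 and higher in vehicle, a difference of -1.86 ± 0.15 (edgeR adjusted p = 1.76e-05). KLF4 showed the same turn, with effects of -0.52 in R1881 and 1.202 in vehicle (difference -1.72 ± 0.19, edgeR adjusted p = 0.000484). SLITRK3, a neuronal adhesion protein gene that androgen represses, went the other way, with effects of 1.31 in R1881 and -0.45 in vehicle (edgeR adjusted p = 0.00195). EFNA5 was higher in both, by 0.86 in R1881 and 1.47 in vehicle, with a called difference of -0.62 ± 0.07 (edgeR adjusted p = 0.00052).

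Cell cycle lists held 2 S phase and 4 mitotic genes called lower in R1881, with medians of -0.19 and -0.21, against 29 and 21 in vehicle with medians of -0.62 and -0.81. No gene of either list had a called difference between the effects. For the stress response list the counts were 18 lower in R1881 and 12 in vehicle, with 1 called difference. For ER folding and export genes they were 20 lower in R1881 and 5 in vehicle, with 3 called differences. Of all genes, 7.33% were called lower in R1881 and 6.21% in vehicle, and 0.767% had a called difference.

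**Figure D5:**
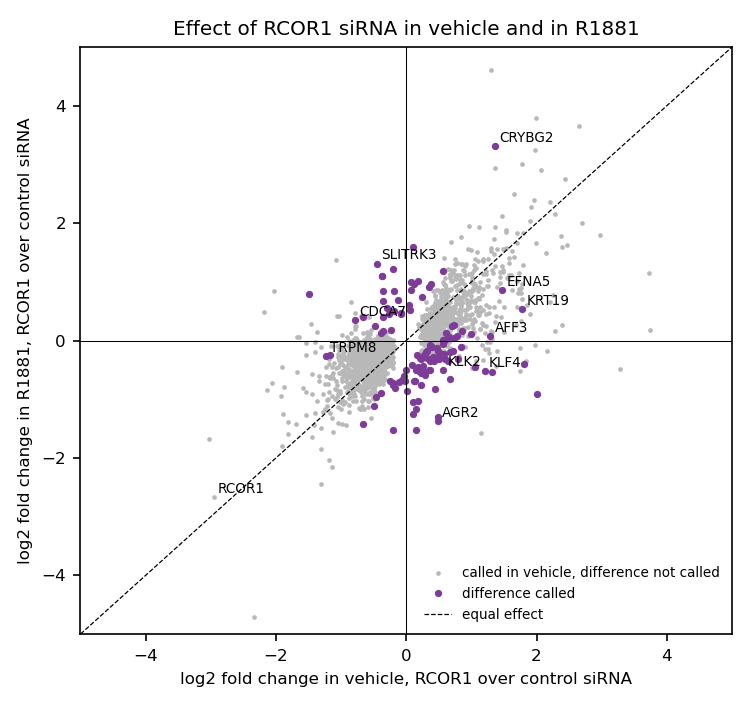
Log2 fold change of RCOR1 siRNA over control siRNA in R1881 (vertical) against that in vehicle (horizontal); grey points are genes called in vehicle without a called difference, purple points the 118 genes whose effects differed, and the dashed line marks equal effects. AGR2, KLF4 and KLK2 lie right of zero and below it, and SLITRK3 left of zero and above it.

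RCOR1 siRNA was also set directly against UPF1 siRNA in vehicle, a second targeting pool; UPF1 is the helicase of nonsense-mediated decay. This asks which levels differ between the knockdowns rather than from the control. EdgeR called 5101 genes (33.1%), 2298 higher (14.9%) and 2803 lower (18.2%) with RCOR1 siRNA. The comparisons of either siRNA with control siRNA share the control libraries, so their values are given only side by side.

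Cell cycle genes were higher with RCOR1 siRNA than with UPF1 siRNA, 25 higher and 3 lower of 42 S phase genes, 23 higher and none lower of 38 mitotic genes, and 38 higher of 44 histone genes. Beside their controls, the medians were -0.62 with RCOR1 siRNA and -1.14 with UPF1 siRNA for S phase, and -0.81 with RCOR1 siRNA and -1.60 with UPF1 siRNA for mitosis. Ribosomal protein genes were higher with RCOR1 siRNA than with UPF1 siRNA in 74 of 77 cases, and interferon-stimulated genes lower in 29 of 40. Beside their controls, the ribosomal medians were 0.14 with RCOR1 siRNA and -0.41 with UPF1 siRNA. The interferon medians were 0.18 with RCOR1 siRNA and 1.085 with UPF1 siRNA. In the direct comparison 14.9% of all genes were called higher and 18.2% lower. Integrated stress response genes were lower in 19 of 31, none higher. Their medians beside control siRNA were -0.28 with RCOR1 siRNA and 0.21 with UPF1 siRNA.

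Single genes separated the pools further. SALL4, a stem cell zinc finger factor, was at 6.48, 5.45 and 4.74 CPM with RCOR1 siRNA, against 1.32, 1.19 and 0.722 CPM with UPF1 siRNA. Every RCOR1 siRNA library was above every UPF1 siRNA library (2.36 ± 0.26, edgeR adjusted p = 5.55e-06). AFF3 was at 26.7, 29.6 and 28.99 CPM with RCOR1 siRNA, against 4.47, 5.37 and 5.70 CPM with UPF1 siRNA, with a wide gap (2.46 ± 0.11, edgeR adjusted p = 3.16e-10). Carbonic anhydrase-related CA11, the zinc finger gene ZNF843 and RP11-288G3.4 were higher by 2.01, 2.21 and 3.04. PLEKHS1, a pleckstrin homology protein gene, was lower, at -2.71, and so were the overlapping chromosome 3 genes ACTRT3 (-2.61), RP11-816J6.3 (-3.26) and MYNN (-2.52), with edgeR adjusted p under the threshold in each.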

How the data were processed

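RNA of LNCaP cells was sequenced after ribosomal RNA removal with a RiboErase kit, per the labels' protocols. The deposited values are raw counts per gene, with no normalization by the authors. Per the submitters' processing notes, bcl2fastq 2.20, STAR 2.7.9a, featureCounts of Subread 1.6.4 and GRCh38.p7 were used; the annotation release, the strand setting and read filters were not given in the sources used here.

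Libraries were grouped by their siRNA and treatment labels. The tests used edgeR 4.0.16 in R 4.3.3: filterByExpr by group, TMM scaling, 1 mean per group over all 18 libraries, and two-sided quasi-likelihood F tests with Benjamini-Hochberg adjustment over 15390 genes at 0.05. SE is the log2 fold change divided by the root of F. Library totals ranged from 10299607 to 17338235 counts; counting error and library spread both enter the p-values. GENCODE 29 gave coordinates and GC content, and RefSeq GRCh38.p14 gave promoters. The edgeR procedure was tested on simulated data, drawn independently for each gene. Those data hold no shift shared by many genes, such as AT-rich share, so they do not test the calls under such shifts. Alternatives were DESeq2 1.42.0, other scalings, no filter, the compared groups alone, GC offsets, a fold threshold of 1.2 and leaving out each library; 2 further alternatives on AT-rich share were chosen after seeing the data.

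The members and gene lists were chosen with earlier results of these data known. Named genes were all CoREST and LNCaP marker genes, the 15 largest called rises and falls with a mean of at least 1 CPM and no overlap, up to 4 called members per list plus its highest, the 5 called genes of highest level, and the 5 largest differences each way against UPF1 siRNA and between treatments. Other list members appear as part of the description of their list. Counts for lists not described in the report are in the closing observations. Some genes that this rule names are not reported here.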

Additional observations from a re-analysis of the deposited data

Results flagged for a closer look

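The effect of RCOR1 siRNA differed between R1881 and vehicle for 118 genes by edgeR's interaction test at an adjusted p under 0.05 (0.767% of genes tested), and named genes among them are listed here because that difference itself was tested. Each value is the log2 effect in R1881 minus the log2 effect in vehicle. Causes were not tested.

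More negative in R1881 were the kallikreins KLK2 (-1.08) and KLK3 (-0.85), the serine protease TMPRSS2 (-0.82), the prostate sugar carrier SLC45A3 (-0.66) and AFF3 (-1.22). AFF3 had effects of 0.074 in R1881 and 1.29 in vehicle, and SLC45A3 of -0.51 in R1881 and 0.15 in vehicle. Epithelial genes in this direction were AGR2 (-1.86), KLF4 (-1.72), ELF3 (-0.91), KRT19 (-1.25) and the sodium channel subunit SCNN1G (-1.85). KRT19 had effects of 0.53 in R1881 and 1.78 in vehicle, and SCNN1G of -0.53 in R1881 and 1.32 in vehicle. EFNA5 (-0.62), ID2 (-0.70) and the class I light chain B2M (-0.51) were also more negative in R1881. TPM1-AS (-1.52) lies within TPM1, so its reads cannot be told apart from those of that gene without a strand setting.

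More positive in R1881 were CRYBG2 (1.96), SLITRK3 (1.76), CDCA7 (1.14), VWF (1.08), the sphingosine phosphate receptor S1PR3 (1.03) and TRPM8 (0.96). CDCA7, a chromatin gene that MYC and E2F1 induce, had effects of 0.35 in R1881 and -0.79 in vehicle, and TRPM8 of -0.27 in R1881 and -1.24 in vehicle. The vehicle calls of B2M and S1PR3 were lost in 4 and in 6 of the 6 leave-one-out comparisons.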

How the results depend on the processing

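No gene called in vehicle changed direction in any alternative run. RCOR1 was called lower in every one. Against 817 higher and 955 lower genes with RCOR1 siRNA in vehicle, edgeR gave 309 and 428 with the spread from the 6 compared libraries alone, 1464 and 2041 with GC-content offsets, 289 and 315 against a 1.2-fold change, and 2029 and 2451 with AT-rich share as a covariate, which is computed from the counts themselves and was chosen after seeing the data. Leaving out each library in turn gave 506 to 740 higher and 613 to 781 lower. DESeq2 called 1691 genes, of which 1549 were shared with the 1772; scaling by library size alone called 1445, of which 54% were higher, against 46.1%. Of 186 named called genes, 106 to 186 were still called under single alternatives. Against UPF1 siRNA (2298 higher, 2803 lower), the covariate gave 3560 higher, and leaving out single libraries gave 1812 to 2277 higher and 2235 to 2691 lower. For the R1881 minus vehicle difference (35 positive, 83 negative), DESeq2 gave 58 positive; RLE scaling gave 55, library size alone 28 and no filter 52 negative; the compared groups alone gave 7 and 17, GC-content offsets 194 and 287, and the covariate 314 and 595. Without both libraries apart in AT-rich share, an alternative chosen after seeing the data, 127 were negative. Leaving out single libraries gave 12 to 30 positive and 37 to 96 negative. The cause of these shifts was not tested, beyond the smaller number of libraries in some. No paired analysis was possible because the labels carry no replicate numbers and numbers given in accession order only name a library.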

Other observations

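Around the RCOR1 locus on chromosome 14, 22 other genes within 1 Mb were tested. WDR20 (0.23) and the long noncoding RNA RP11-600F24.7 (0.65) were called higher and TRAF3 (-0.21), an adaptor of NF-kappaB and interferon signalling, was called lower by edgeR. The TRAF3 call was kept in 1 of the 6 leave-one-out comparisons. Over all genes 5.31% were called higher and 6.21% lower, and the counts in this window, 2 higher and 1 lower of 22, stand near those shares.

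Among chromatin and receptor partners outside CoREST, 2 of 35 other corepressor genes were called higher and 4 lower, and none of 24 nuclear receptor coactivators was called. None of 12 nonsense-mediated decay factors was called. Of 12 markers of LNCaP-type luminal cells 2 were called higher and 1 lower. Small RNA pathway genes and viral RNA sensors had 1 higher and 1 lower of 17. Mesenchymal genes had 1 higher of 10 tested, YAP targets 1 lower of 14, immediate early genes 1 higher and 1 lower of 20, class I presentation genes 1 higher and 2 lower of 18, and NKG2D ligands 1 higher and 1 lower of 5. Steroid enzymes had 3 lower of 16, UGT2B17, SRD5A1 (-0.39) and RDH11 (-0.47). Metallothioneins and zinc carriers had 1 lower of 15, ion channels and pumps 3 higher and 5 lower of 28, and nuclear and prostate long noncoding RNAs 1 higher and 2 lower of 19. Over all genes 5.31% were called higher and 6.21% lower.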
